A study of Mus musculus with 16 samples.

Results

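Of the Schlafen family of the mouse, 6 protein-coding genes, Slfn1, Slfn2, Slfn4, Slfn5, Slfn8 and Slfn9, are followed here through engrafted brain macrophages and host microglia of bone marrow chimeras. They were taken by symbol from a table of 24411 genes, in which 11 rows carry a symbol starting with Slfn. Slfn4 was selected on a measured value, the rise of its reads with LPS in the engrafted cells. Its values in comparisons that hold those libraries are therefore a description without a test.

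The chimeras were wild-type C57BL/6J mice that had been irradiated with 950 cGy and had received donor bone marrow. The donor marrow carried CD45.1 and was otherwise wild-type, so that engrafted cells and host microglia (CD45.2) could be sorted from the same brain. Mice 1 to 4 were given lipopolysaccharide (LPS, a bacterial cell wall component, 2.5 mg/kg) 12 h before they were killed, and mice 5 to 8 were not injected. Each of the 4 groups (engrafted cells or host microglia, with or without LPS) thus has 4 libraries. All groups share the irradiation and the transplant, so no group shows microglia of an unmanipulated brain. Per the results text of the study, recipients were 6 weeks old at transplantation and were studied 9 months later. The labels, however, name 3.5 and 9 months as possible intervals and do not say which mouse had which. From each population 10000 cells were sorted as CD11b+ cells that were negative for Ly6C/G and low in CD45.1 or CD45.2.

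Schlafen genes take their name from the German word for sleeping, since the founding members were described in resting thymocytes. Slfn1 and Slfn2 encode short proteins, Slfn4 an intermediate form, and Slfn5, Slfn8 and Slfn9 long proteins with a helicase-like part. Several members are known to be induced by type I interferon or by microbial products in macrophages, and Slfn2 is needed for quiescence of T cells.

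The 6 genes lie in a single cluster on mouse chromosome 11 (mm9), from 82765604 to 83003718, a span of 238.1 kb. In the order of the chromosome they are Slfn5 (NM_183201, plus strand, 82765604 to 82778352), Slfn9 (NM_172796, minus strand, 82793805 to 82805332), Slfn8 (NM_181545, minus strand, 82815660 to 82834312), Slfn2 (NM_011408, plus strand, 82878614 to 82884180), Slfn1 (NM_011407, plus strand, 82930347 to 82936161) and Slfn4 (NM_001302559, plus strand, 82988688 to 83003718). The 5 further rows are Slfn10-ps, a pseudogene with 177 reads over all libraries, Slfn3 with 30 reads, the Schlafen-like gene Slfnl1 of chromosome 4 with 4 reads, and Slfn14 and the antisense transcript Slfn5os with 0 reads each.

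The bases just upstream of the start sites are shown, first for the short and intermediate genes and then for the long genes. This order does not part members by their response, since Slfn5 of the second set was called higher with LPS in host microglia. The sequences are RefSeq promoters of build GRCm38.p6, and all 6 members had an entry (Slfn8 had 2, of which the entry at the deposited start is used). Each was found once on chromosome 11 of mm9, to which the coordinates given here refer. For the short and intermediate genes, the capitals mark a run of 11 bases that Slfn1, Slfn2 and Slfn4 have in common.
Slfn1, chr11:82930202-82930321, plus strand: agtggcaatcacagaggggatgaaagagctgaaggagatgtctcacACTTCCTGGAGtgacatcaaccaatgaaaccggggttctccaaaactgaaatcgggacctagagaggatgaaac
Slfn2, chr11:82878494-82878613, plus strand: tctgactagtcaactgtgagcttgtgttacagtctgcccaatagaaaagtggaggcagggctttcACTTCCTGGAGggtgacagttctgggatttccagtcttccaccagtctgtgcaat
Slfn4, chr11:82988568-82988687, plus strand: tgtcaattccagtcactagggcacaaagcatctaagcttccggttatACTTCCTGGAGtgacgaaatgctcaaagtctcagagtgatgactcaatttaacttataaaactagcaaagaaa

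For the long genes, the capitals mark a match to the core of the interferon-stimulated response element, 2 copies of GAAA with 2 bases of any kind between them, on either strand.
Slfn5, chr11:82765444-82765603, plus strand: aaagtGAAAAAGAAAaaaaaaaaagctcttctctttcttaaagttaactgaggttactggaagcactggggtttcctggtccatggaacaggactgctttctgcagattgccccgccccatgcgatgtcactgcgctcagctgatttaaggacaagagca
Slfn8, chr11:82834313-82834432, minus strand: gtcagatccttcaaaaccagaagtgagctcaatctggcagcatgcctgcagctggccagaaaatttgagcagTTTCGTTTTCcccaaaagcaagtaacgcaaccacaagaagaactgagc
Slfn9, chr11:82805333-82805452, minus strand: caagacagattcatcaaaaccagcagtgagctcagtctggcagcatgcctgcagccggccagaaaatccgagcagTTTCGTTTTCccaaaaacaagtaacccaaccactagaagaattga

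The shared run ACTTCCTGGAG stands in Slfn1 at -74 to -64, in Slfn2 at -55 to -45 and in Slfn4 at -73 to -63, counted from the RefSeq start site, and it is found in 24 of all 32851 promoters of the table (0.0731%). It was found by a search for the longest run shared by Slfn1, Slfn2 and Slfn4, after the expression values were known. A run chosen in this way is likely to be rare whatever the genes, so the share is a description and no test. The stretches of Slfn8 and Slfn9 shown above share longer runs with each other. The core of the response element is found in 3.44% of all promoters. Slfn5 holds it at -155 to -146, Slfn8 at -48 to -39, and Slfn9 at -45 to -36. The promoters of Slfn1, Slfn2 and Slfn4 hold no match within the searched window. The gamma-activated site, searched as TTCNNNGAA (8.3% of all promoters), had no match upstream of any of the 6 genes. Neither had the NF-kappaB site, searched as GGG and TTTCC with 2 bases between them (1.63%). Sites with other spacing or letters were not searched for, so their absence is not shown. The matches found are letters in a window and say nothing of whether a factor binds there.

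Reads were counted on exons on the sense strand, and 395283 to 1203597 reads per library fell on genes (median 820587.5). Levels are given as CPM, counts divided by library size, with TMM factors over the 16 libraries, and scaled to a common total. A count of 0 allows up to 3 reads, which is 2.39 to 8.41 CPM depending on the library, and such limits and all counting intervals cover counting error only. The genes resemble each other in sequence, and 84.1% (Slfn8) to 99.4% (Slfn1) of the 50-base windows of their transcripts occur once on chromosome 11. The 3′ capture of these libraries places reads near transcript ends. In the last 500 bases of the transcripts examined, the share is at least 96.9% except for Slfn5 with 84.5%. These were the longest protein-coding GENCODE transcripts, whereas reads were counted on RefSeq exons. For Slfn5 the lengths are 4080 against 5981 bases and for Slfn9 4530 against 3849, so the ends examined may not be those that were counted. In every group, 8 of 8 macrophage markers and 8 of 8 microglia markers had reads. A single read counts here, and the microglia markers were lower in engrafted cells. Their summed level had a median of 3558 CPM without and 1483 CPM after LPS in engrafted cells. In host microglia it was 11290 and 2670 CPM. Sall3 had 4 reads in engrafted cells without LPS, against 694 in host microglia. The libraries hold bulk RNA, so a lower level cannot be told apart from fewer cells that express the gene.

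**Figure D1:**
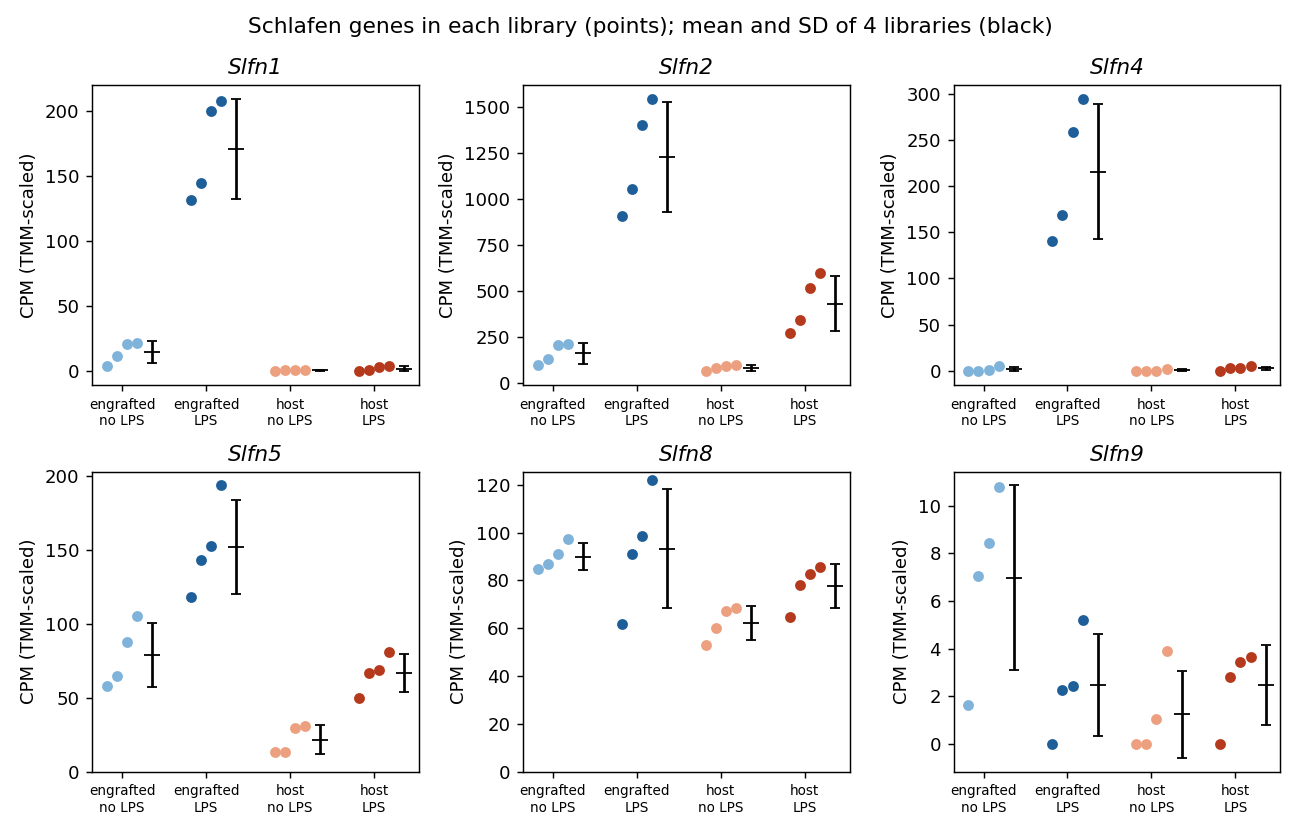
Level of each Schlafen gene in CPM (vertical axis, linear, its own range in each panel) in the 4 groups, with each library as a point and the mean with its SD over 4 libraries in black. Slfn1 and Slfn4 stood at 132 to 208 and 140 to 295 CPM in engrafted cells after LPS and at no more than 4.59 CPM in any host library, whereas Slfn8 stayed between 53.1 and 122 CPM in all libraries.

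LPS was first examined in the engrafted cells, to ask how they responded to a systemic challenge. Slfn1 and Slfn2 rose, and Slfn4, chosen for its rise here, went from a few reads to 140.2 CPM or more in each library. Slfn5 increased by slightly less than 2-fold, and Slfn8 and Slfn9 did not pass the test in either direction. A gene was called where the absolute log2 fold change exceeded 1 and the adjusted p was below 0.05 in the quasi-likelihood test of edgeR, adjusted by Benjamini-Hochberg over every gene tested. Of the 6 members, Slfn1 and Slfn2 were called higher and 0 were called lower, Slfn4 carries no test, and Slfn9 did not pass the filter for low counts. Slfn1 passed that filter only through the libraries after LPS, so the number called is given as a description, and neither DESeq2 nor limma-trend called a member lower in any comparison. Among all 7609 genes tested, 10.2% were called higher and 11.3% lower.

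Slfn1, the founding short member of the family, was at 4.03, 11.8, 21.3 and 21.6 CPM in engrafted cells of mice 5 to 8 and at 208, 200.1, 144 and 132 CPM in those of mice 1 to 4 after LPS. The lowest library after LPS was thus several times above the highest without LPS, and libraries without overlap in this direction were found for 18.3% of all genes tested. The mean went from 14.7 ± 8.43 to 171 ± 38.6 CPM (SD, n = 4), a fitted log2 fold change of 3.63 (SE 0.31). Since the gene entered the fit through its high libraries, the test that needs no filter is given, a two-sided exact permutation test of CPM (p = 0.0286, the smallest that 4 libraries against 4 can give).

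Slfn2, the short member required for T cell quiescence, was called as well. It was at 131, 96.1, 209.7 and 209 CPM without LPS and at 1400, 1543, 1055 and 906 CPM after LPS. Again no library of one condition reached into the other. The mean rose from 161 ± 57.1 to 1226 ± 296 CPM (SD, n = 4), a log2 fold change of 2.89 (SE 0.25, edgeR adjusted p = 2.41e-08). Only 135 of the 7609 genes tested had a larger fold change (1.77%).

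Slfn4, which is known as a gene induced during macrophage activation, had 1, 0, 3 and 0 reads in the engrafted cells of mice 5 to 8. After LPS it had 264, 212, 130 and 50 reads, or 295, 259, 169 and 140.2 CPM. The 656 reads after LPS against 4 without LPS gave a ratio of scaled read sums of 159 (95% counting interval 61.8 to 585). The fitted log2 fold change was 7.03, and 2 of the 7609 genes tested had a larger one. This gene was picked for this rise, so the values carry no test.

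Slfn5, a long member found in the nucleus, was at 64.5, 87.7, 104.9 and 57.6 CPM without LPS and at 193.5, 152.5, 143 and 118 CPM after LPS. The groups did not overlap. The log2 fold change of 0.93 (SE 0.21, edgeR adjusted p = 0.00138) fell short of the 2-fold limit, and it passed that limit when the LPS library of mouse 4 (1.03) or the control library of mouse 7 (1.10) was left out. A significant difference of less than 2-fold is not unusual here, since an adjusted p below 0.05 was reached by 38.7% of all genes at any fold.

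Slfn8, a long member, was at 84.6, 91.03, 86.8 and 97.2 CPM without LPS and at 98.4, 122, 91.1 and 61.7 CPM after LPS. The groups overlapped, and the log2 fold change was 0.05 (SE 0.19, edgeR adjusted p = 0.86). The sign of this value turned under 3 alternatives, and the ratio of read sums was 1.11 (95% counting interval 0.93 to 1.32). Slfn9, the close relative of Slfn8, was too low for the test, with 7, 5, 1 and 6 reads without LPS and 2, 2, 4 and 0 reads after LPS. The ratio of read sums was 0.408 (95% counting interval 0.155 to 0.976), and the libraries overlapped (two-sided exact permutation test of CPM, p = 0.114).

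Markers of monocytes moved with these genes. The summed level of 9 listed monocyte markers, all 9 with reads in engrafted cells, was 416 to 511 CPM in engrafted cells without LPS and 2803, 2233, 1892 and 1424 CPM after LPS in mice 1 to 4. In host microglia the sum was 67 to 161 CPM without and 28.7 to 68.2 CPM after LPS, with Chil3 at 0 reads in the host libraries without LPS. Slfn4, Slfn1 and the monocyte sum were each highest in mouse 1 and lowest in mouse 4 among the engrafted LPS libraries, with mouse 2 and mouse 3 between them. This order was not particular to them, since Slfn5 in engrafted cells and Slfn2 in host microglia after LPS followed it too. The monocyte sum of host microglia after LPS ran the other way, lowest in mouse 1 and highest in mouse 4. The engrafted library of mouse 4 was also the shallowest, with 395283 reads on genes. Ly6c2, which encodes a form of the Ly6C antigen that the sort excluded, went from 30.1 to 716 CPM in engrafted cells, Plac8 from 20.8 to 405 CPM, F10 from 4.17 to 316 CPM and Chil3 from 22.1 to 209.7 CPM. Ccr2, the chemokine receptor of classical monocytes, went the other way, from 155 to 46.2 CPM. The summed level of 13 neutrophil markers was 360 to 1380 CPM in engrafted cells without LPS and 100 to 560 CPM after LPS. Of these 13, 10 had reads without LPS and 12 after LPS, and the defining marker Ly6g stayed at or below 2.8 CPM in every library. The part of monocytes in the rise of the Schlafen genes was not tested. The summed red blood cell markers reached 4478 CPM in the engrafted control library of mouse 8 and 6128 CPM in the engrafted LPS library of mouse 4, against at most 779 CPM elsewhere. Slfn1 and Slfn2 stayed called when either of these libraries was left out.

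The same challenge was then examined in host microglia of the same mice. Slfn2 and Slfn5 rose, whereas Slfn8 did not change beyond the spread, and Slfn1, Slfn4 and Slfn9 remained at a handful of reads. Of the 3 members that passed the filter for low counts, 2 were called higher and 0 lower, beside 7.66% higher and 10.4% lower among all 8238 genes tested. Both LPS comparisons use different mice with and without LPS, so the mouse could not enter as a block.

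Slfn2 was at 62.9, 80.6, 90.1 and 99.1 CPM in host microglia of mice 5 to 8 and at 595, 513, 342 and 273 CPM after LPS in mice 1 to 4. The groups stood clearly apart, as for 17.1% of all genes tested, and the mean rose from 83.2 ± 15.5 to 431 ± 149 CPM (SD, n = 4). The log2 fold change was 2.35 (SE 0.21, edgeR adjusted p = 1.65e-08), and 118 of the 8238 genes tested had a larger one.

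Slfn5 was at 30.7, 13.6, 29.5 and 13.3 CPM without LPS and at 66.5, 80.8, 68.8 and 50.1 CPM after LPS. All 4 libraries after LPS were above all 4 without it. The log2 fold change was 1.62 (SE 0.25, edgeR adjusted p = 2.33e-05). Slfn8 was at 60.02, 67.01, 68.6 and 53.1 CPM without LPS and at 82.6, 64.8, 85.7 and 77.9 CPM after LPS, with a log2 fold change of 0.30 (SE 0.18, edgeR adjusted p = 0.183) and 1 library after LPS inside the control range.

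The remaining members were close to the limit of detection in host microglia. Slfn4 had 0, 0, 2 and 0 reads without LPS and 4, 0, 2 and 2 reads after LPS, a ratio of read sums of 4.61 (95% counting interval 0.92 to 44.6, two-sided exact permutation test, p = 0.143). Slfn1 had 0, 1, 1 and 1 reads without LPS and 3, 0, 1 and 3 reads after LPS, a ratio of 2.69 (95% counting interval 0.614 to 16.1, exact permutation p = 0.229). Slfn9 had 0, 4, 0 and 1 reads without LPS and 3, 0, 3 and 2 reads after LPS (exact permutation p = 0.486). At this depth no change of these 3 genes in host microglia was detectable, and the upper ends of the intervals leave room for large ones.

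**Figure D2:**
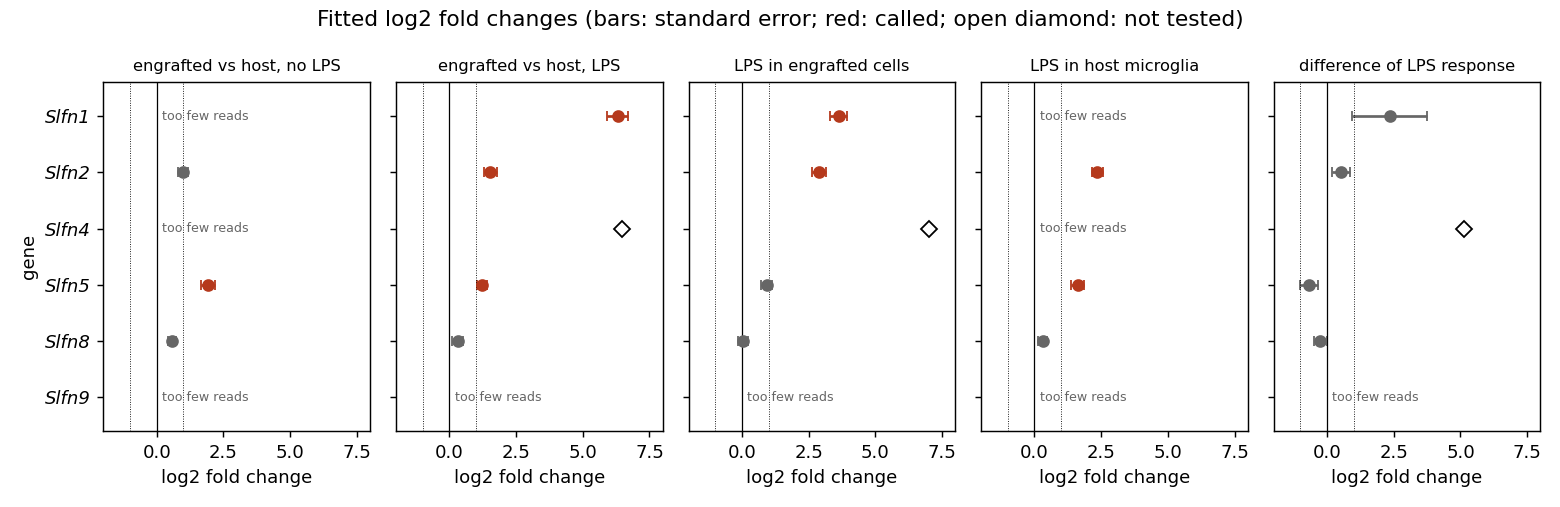
Fitted log2 fold changes of the members in the 5 comparisons, with standard errors as bars, dotted lines at the 2-fold limits, called members in red, and Slfn4 as an open diamond where it carries no test. Slfn2 is called in 3 panels, at 1.53, 2.89 and 2.35, Slfn5 in 3 panels, at 1.91, 1.21 and 1.62, and no member is called in the last panel.

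Whether the response to LPS differed between engrafted cells and host microglia was tested by the interaction of population and LPS over all 16 libraries. With edgeR, 0 of the 4 members tested were called and 0 had an unadjusted p below 0.05, against 2.45% of all 8847 genes called higher and 2.5% called lower. DESeq2 called 0 and limma-trend 1. For Slfn1 the response was larger in engrafted cells by 2.35 on the log2 scale, but with an SE of 1.41 and an edgeR adjusted p of 0.386 (unadjusted p = 0.108). The host side of that difference rests on 10 reads in all, 7 after LPS and 3 without. Slfn1 passed the filter for low counts here only through the engrafted libraries after LPS. Its values with edgeR and limma-trend, p included, are therefore a description. Limma-trend on the log2 scale of the study, which adds 34 to the scaled reads and so damps values near 0, gave Slfn1 a difference of 3.00 with an adjusted p of 2.34e-05. Under the other alternatives, including the mouse as a block, the adjusted p of Slfn1 stayed above 0.05.

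For Slfn2 the difference of the responses was 0.53 (SE 0.34, edgeR adjusted p = 0.43), and for Slfn8 it was -0.26 (SE 0.25, edgeR adjusted p = 0.627). Slfn5 leaned toward a larger response in host microglia, with -0.69 (SE 0.34, edgeR adjusted p = 0.261, unadjusted p = 0.0511). For Slfn4 the fitted difference was 5.13, given without a test because it holds the contrast for which the gene was noted, and it ranged from 3.09 to 6.55 when single libraries were left out.

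Engrafted cells and host microglia were next compared in mice without LPS. The engrafted cells had the higher mean for all 6 members, though for Slfn4 on 4 reads against 2 and for Slfn9 on 19 against 5. How many of all genes had the higher mean in engrafted cells was not computed. Of the 3 members that could be tested, Slfn5 alone was called, while Slfn2 and Slfn8 differed by less than 2-fold. This makes 1 member called higher and 0 lower, beside 6.25% higher and 4.73% lower among all 8042 genes tested.

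Slfn5 was at 57.6 to 104.9 CPM in the engrafted and at 13.3 to 30.7 CPM in the host libraries, with no overlap, as for 11.3% of all genes tested in this direction. The log2 fold change was 1.91 (SE 0.26, edgeR adjusted p = 2.12e-06), and 213 of the 8042 genes tested had a larger one. Slfn2 had a log2 fold change of 0.98 (SE 0.19, edgeR adjusted p = 0.00027), just under the limit, and its libraries overlapped, since the engrafted library of mouse 6 with 96.1 CPM lay below the host library of mouse 8 with 99.1 CPM. Slfn8 was at 84.6 to 97.2 CPM in engrafted and at 53.1 to 68.6 CPM in host libraries, and its log2 fold change was 0.58 (SE 0.16, edgeR adjusted p = 0.00634). At any fold, 27.3% of all genes had an adjusted p under 0.05.

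Slfn1 did not pass the filter for low counts in this comparison. It had 4, 7, 13 and 12 reads in the engrafted libraries of mice 5 to 8 and 0, 1, 1 and 1 reads in the host libraries of the same mice. Each engrafted library was thus above each host library, and the ratio of read sums was 17.2 (95% counting interval 5.44 to 87.3). The two-sided exact permutation test of CPM gave p = 0.0286, the smallest that 4 libraries against 4 can give. It shuffled the libraries freely, although both libraries of a mouse came from the same brain. Shuffling within mice could not give a p this small. Where the gene entered a fit across genes, it was called: with DESeq2 at a log2 fold change of 4.29 (adjusted p = 0.000193), without a filter at 3.98 (adjusted p = 3.07e-06) and with all 16 libraries in 1 fit at 3.95 (adjusted p = 6.42e-05). In the fit over all 16 libraries it passed the filter only through the engrafted libraries after LPS, so that value is a description.

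Slfn9 had 19 reads in the engrafted and 5 in the host libraries, a ratio of 5.45 (95% counting interval 1.97 to 18.7, two-sided exact permutation test, p = 0.0571). The pairing by mouse was not used in this test either. Slfn9 was called without a filter (log2 fold change 2.32, edgeR adjusted p = 0.0475) and not by DESeq2 (adjusted p = 0.0603). Slfn4 had 4 reads in engrafted and 2 in host libraries (ratio 2.87, 95% counting interval 0.411 to 31.7, exact permutation p = 0.714), so at this depth no difference between the populations was detectable without LPS.

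After LPS, Slfn1, Slfn2 and Slfn5 were called higher in engrafted cells, and 0 members were called lower. Slfn1 passed the filter only through the engrafted libraries and Slfn9 did not pass it, so no share of the members is given. Among all 7843 genes tested, 6.73% were called higher and 4.34% lower. This comparison shares its engrafted libraries with the LPS comparison in engrafted cells, so the 2 are not separate evidence.

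Slfn1 was at 132 to 208 CPM in engrafted cells and at 0 to 4.17 CPM in host microglia, apart as were 10.1% of all genes tested in this direction. Its fitted log2 fold change was 6.31 (SE 0.38), and the two-sided exact permutation test of CPM, which needs no filter, gave p = 0.0286, the smallest for unpaired libraries. The pairing by mouse was left out of this test, and shuffling within mice could not give a p this small. The ratio of 508 to 7 reads, scaled by library, was 87.5 (95% counting interval 42.2 to 219), and 20 of the 7843 genes tested had a larger fitted change. Slfn4 was at 140.2 to 295 CPM in engrafted cells and at 0 to 4.59 CPM in host microglia, a ratio of read sums of 98.8 (95% counting interval 49.9 to 229.9) and a fitted log2 fold change of 6.47 that carries no test. Both genes were thus present in all 4 engrafted libraries and at or near the limit of detection in the host libraries of the same brains.

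Slfn2 was at 906 to 1543 CPM in engrafted cells and at 273 to 595 CPM in the host, a log2 fold change of 1.53 (SE 0.25, edgeR adjusted p = 0.000186). Slfn5 was at 118 to 193.5 CPM against 50.1 to 80.8 CPM, a log2 fold change of 1.21 (SE 0.20, edgeR adjusted p = 0.000174). Neither gene overlapped between the populations. Slfn8 overlapped, with a log2 fold change of 0.31 (SE 0.20, edgeR adjusted p = 0.339). Slfn9 had 8 reads on each side (ratio 1.21, 95% counting interval 0.394 to 3.68, exact permutation p = 1). Slfn10-ps, the pseudogene between Slfn8 and Slfn2, was higher in engrafted cells as well, with a log2 fold change of 1.78 (SE 0.39, edgeR adjusted p = 0.00299), though its libraries overlapped.

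Both libraries of a mouse can be set against each other, since both populations were sorted from its brain. The engrafted minus host difference in log2 CPM (prior count 2) was positive in 8 of 8 mice for Slfn1, Slfn2 and Slfn5, in 7 for Slfn8, and in 6 for Slfn4 and Slfn9. For Slfn4, mice 6 and 8 had 0 reads in both libraries, and mouse 5 had 1 read against 0. For Slfn9, mice 1 and 4 were negative. The share of all genes positive in every mouse was not computed, so these counts are a description. For Slfn1 the difference was 1.40 to 2.86 in the mice without LPS and 4.34 to 6.36 after LPS. For Slfn2 it went from 0.25 to 1.20 up to 1.23 to 1.72, so that the ranges were separate by a small margin. For Slfn4 it was 0 to 0.86 without LPS and 4.76 to 6.72 after LPS. Such a complete separation upward was seen for 7.55% of the 8847 genes. For Slfn4 the differences after LPS hold the engrafted libraries that chose the gene, and Slfn1 passed the filter only through those libraries. The separation of both genes is therefore a description. For Slfn5 the ranges overlapped, at 1.01 to 2.49 without LPS and 0.90 to 1.51 after LPS. They overlapped for Slfn8 too, at 0.33 to 0.84 and -0.33 to 0.89, and for Slfn9, at 0.73 to 1.95 and -1.09 to 0.99.

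**Figure D3:**
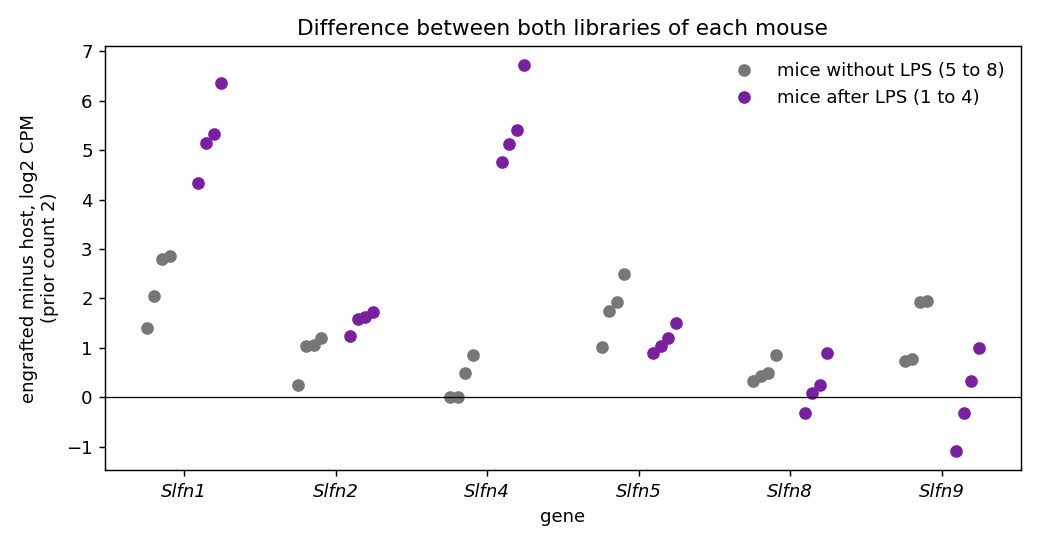
Engrafted minus host difference within each mouse in log2 CPM (prior count 2; 0 means equal levels), as a point per mouse for the 4 mice without LPS in grey and the 4 after LPS in purple. The groups of mice are separate for Slfn1, Slfn2 and Slfn4, where all 4 mice after LPS lie at 4.34 or more, 1.23 or more and 4.76 or more. They overlap for Slfn5, Slfn8 and Slfn9. Slfn4 was picked for its rise in the engrafted libraries after LPS and Slfn1 passed the filter only through them, so both separations are a description.

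The order of the levels over the 4 groups differed between members. Slfn2 ran from engrafted cells after LPS (1226 CPM) over host microglia after LPS (431 CPM) and engrafted cells without LPS (161 CPM) to host microglia without LPS (83.2 CPM), and of these neighbours the last pair overlapped. Slfn5 ran from engrafted cells after LPS (152 CPM) over engrafted cells without LPS (78.6 CPM) and host microglia after LPS (66.5 CPM) to host microglia without LPS (21.8 CPM), and the middle pair overlapped. Slfn1 ran from engrafted cells after LPS (171 CPM) to engrafted cells without LPS (14.7 CPM), then to host microglia after LPS (2.21 CPM) and without LPS (0.70 CPM). The lowest engrafted control library (4.03 CPM) lay just under the highest host LPS library (4.17 CPM), and the host groups overlapped too. For Slfn4, the 3 groups other than engrafted cells after LPS had means of 0.40 to 2.45 CPM and overlapped. For Slfn8 the means ran from 62.2 to 93.3 CPM and each pair of neighbours overlapped. For Slfn9 they ran from 1.23 to 6.98 CPM with overlapping neighbours.

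Along the chromosome, the members with the largest ratios in engrafted cells, Slfn2, Slfn1 and Slfn4, lay in the distal part of the cluster. This is a description without a test, since Slfn4 was picked for its rise in these libraries. Family rows outside the members broke this order, with a higher ratio for Slfn10-ps than for Slfn2 and a low one for Slfn3. The ratio of read sums, LPS over no LPS in engrafted cells, was 2.06 for Slfn5 (95% counting interval 1.74 to 2.43), 8.21 for Slfn2 (7.43 to 9.09) and 13.7 for Slfn1 (9.75 to 19.8), next to the 159 of Slfn4 at the end of the cluster. Slfn10-ps, which stands between Slfn8 and Slfn2, had 8 reads without LPS and 120 after LPS in engrafted cells, a ratio of 14.5 (95% counting interval 7.15 to 34.4). Slfn3, directly after Slfn4, had 9 reads without LPS and 17 after LPS (ratio 1.83, 95% counting interval 0.772 to 4.66, exact permutation p = 0.343). A change of Slfn3 was thus not detectable at this depth. In host microglia the ratios were 3.15 for Slfn5 (2.44 to 4.08), 5.19 for Slfn2 (4.61 to 5.86) and 5.12 for Slfn10-ps (2.45 to 12.0).

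**Figure D4:**
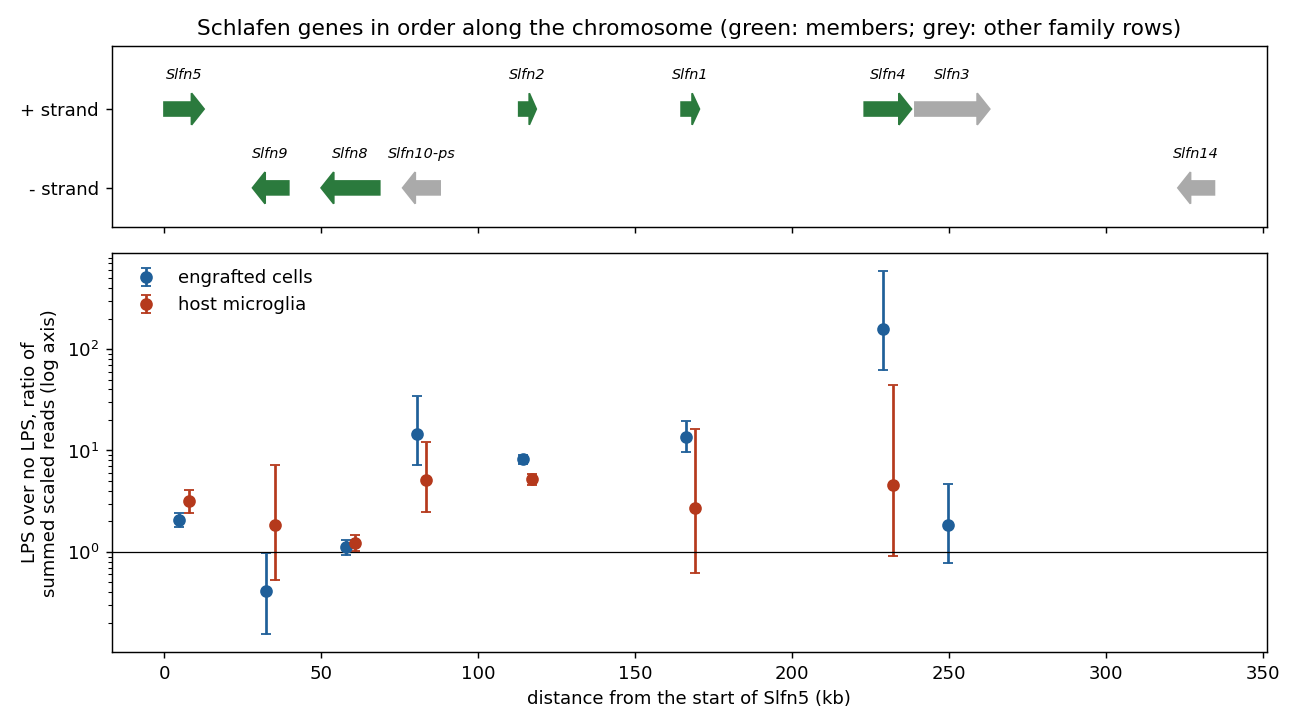
Upper part, the Schlafen genes as arrows in the direction of transcription against the distance from the start of Slfn5 in kb, with members in green and other family rows in grey. Lower part, the ratio of scaled read sums with LPS over those without, in engrafted cells (blue) and host microglia (red). The axis is logarithmic and bars are 95% counting intervals. Slfn3 in host microglia and Slfn14 are left out because a group had 0 reads. The ratio is near 1 for Slfn8 and reaches 159 in engrafted cells for Slfn4, which was picked for this rise.

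Of the genes within 100000 bases on either side of the cluster that are not Schlafen genes, 4 passed the filter. Rffl, a ubiquitin ligase gene, was not called in any comparison and had log2 fold changes with LPS of -0.13 in engrafted cells and 0.00 in host microglia (edgeR adjusted p = 0.794 and 0.998). Rad51d, a gene of DNA repair by recombination, had -0.70 and -0.53 (edgeR adjusted p = 0.0417 and 0.0471), both of less than 2-fold. Nle1, a gene of ribosome assembly, had 0.74 in engrafted cells (edgeR adjusted p = 0.0142) and was called higher in host microglia at 1.11 (edgeR adjusted p = 0.000746). The noncoding gene AI662270, beyond the Slfn4 end of the cluster, was called higher in the engrafted than in the host cells without LPS (log2 fold change 2.84, edgeR adjusted p = 3.95e-08) and after LPS (3.25, edgeR adjusted p = 2.44e-06). With LPS it had a log2 fold change of 0.37 in engrafted cells (edgeR adjusted p = 0.265).

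Since interferon is known to induce several Schlafen genes, a list of 45 interferon-induced genes that leaves out the members was read beside them. In engrafted cells, 16 of the 43 tested list genes were called higher with LPS (37.2%, beside 10.2% of all genes) and 0 lower, with a median log2 fold change of 0.66 against -0.01 over all genes tested. In host microglia 9 of 39 were called higher (23.1%, beside 7.66% of all genes) and 0 lower, with a median of 0.50 against 0.01. Of the 39 list genes tested in both, 8 were called higher in both, 7 in engrafted cells alone and 1 in host microglia alone, and 23 had the larger fold change in engrafted cells. The difference of the responses itself was called higher in engrafted cells for 4 of 44 list genes (9.09%, beside 2.45% of all genes) and lower for 1. The fold change of Slfn2, 2.89 in engrafted cells and 2.35 in host microglia, lay near the upper end of the range of the list genes, which reached 3.11 and 2.42.

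Textbook interferon targets did not move as a block. Isg15, an interferon-induced ubiquitin-like modifier, rose in engrafted cells at a log2 fold change of 3.08 (edgeR adjusted p = 7.18e-10) and in host microglia at 1.26 (edgeR adjusted p = 0.00334). Irf7, the transcription factor that amplifies the interferon response, rose at 2.69 in engrafted cells (edgeR adjusted p = 8.05e-09) and stayed just under 2-fold in host microglia at 0.99 (edgeR adjusted p = 0.00013). For both genes the difference of the responses was called, at 1.81 for Isg15 (edgeR adjusted p = 0.0101) and 1.70 for Irf7 (edgeR adjusted p = 0.000308). Ifit3, an interferon-induced antiviral gene, was not called, with 0.31 in engrafted cells (edgeR adjusted p = 0.408) and -0.68 in host microglia (edgeR adjusted p = 0.0283).

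Of 17 genes of interferon receptors and signalling, all tested, 3 were called higher and 1 lower with LPS in engrafted cells, and 2 were called higher and 0 lower in host microglia. The higher calls are 17.6% and 11.8% of the list, beside 10.2% and 7.66% of all genes tested. Ifnar1, a chain of the type I interferon receptor, was the gene that fell in engrafted cells, by 1.30 on the log2 scale (edgeR adjusted p = 2.89e-05), with a value of 0.00 in host microglia (edgeR adjusted p = 0.988). Without LPS it was higher in engrafted cells, at a log2 fold change of 1.75 (edgeR adjusted p = 9.4e-11). Ifnar2, the other chain, had 0.06 in engrafted cells and -0.37 in host microglia (edgeR adjusted p = 0.867 and 0.0931). The proteins of Stat2 and Irf9 are parts of the factor that binds the response element. Stat2 rose in both populations, at 1.08 and 1.14 (edgeR adjusted p = 0.00021 and 4.59e-05). Irf9 had 0.58 and 0.72 (edgeR adjusted p = 0.0145 and 0.0024), both of less than 2-fold.

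**Figure D5:**
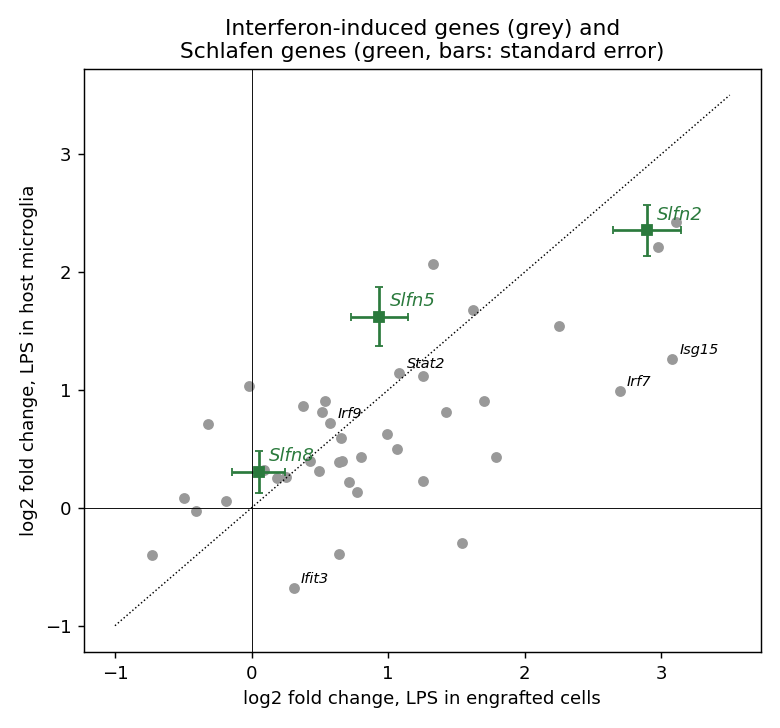
Log2 fold change with LPS in engrafted cells (horizontal axis) against that in host microglia (vertical axis) for the 39 interferon-induced list genes tested in both (grey circles) and for Slfn2, Slfn5 and Slfn8 (green squares, bars are standard errors), with equal responses on the dotted line. Slfn2 lies at 2.89 and 2.35 beside the highest list genes, Slfn5 lies above the line at 0.93 and 1.62, and Slfn8 lies near the origin; Slfn1, Slfn4 and Slfn9 are absent because host reads were too few.

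The same lists were read between the populations. Without LPS 12 of 41 interferon-induced genes tested (29.3%) were called higher in engrafted cells and 0 lower, and after LPS 15 of 42 (35.7%) were called higher and 0 lower, beside 6.25% and 6.73% of all genes called higher. Their median log2 fold changes were 0.68 and 0.83, against 0.02 and -0.01 over all genes. Of the 17 receptor and signalling genes, 2 were called higher and 1 lower without LPS, and 1 higher and 0 lower after LPS, so that the higher calls were 11.8% and 5.88% of that list.

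The genes whose levels ran most like a member's over the 16 libraries were named by Pearson's r of log2 CPM among 8847 genes. The libraries fall into 4 groups and both libraries of a mouse share a brain, so r takes in the differences between groups and carries no p. Slfn1 ran most like Napsa (r = 0.989), Emilin2 (0.981) and Adgre5 (0.977). Slfn2 ran most like Mt1 (0.980), Sdc4 (0.976) and Fpr2 (0.975). Slfn4 ran most like Amica1 (0.982), Cfb (0.980) and F10 (0.978), of which F10 is on the monocyte list. Slfn5 ran most like Grk6 (0.958), Ms4a4c (0.948) and Ifi207 (0.944), and Slfn8 like Stx3 (0.930), Baz2a (0.914) and Ifi213 (0.876). Between members, r was highest for Slfn1 with Slfn4 (0.908) and lowest for Slfn4 with Slfn8 (0.442). Slfn4 was picked for its rise in the engrafted libraries after LPS, and Slfn1 passed the filter only through them. The r values of both genes rest on these libraries and are a description.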

How the data were processed

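The authors prepared 3′ MARS-seq derived libraries, mapped reads to mm9 (HISAT 0.1.5 in the submitters' notes), kept unique reads and counted them on RefSeq exons, sense strand, with HOMER. The deposited values are raw counts per gene. The reads per gene were analysed in R 4.3.3 with edgeR 4.0.16: filter for low counts (minimum count 10, total 15), TMM, quasi-likelihood test, Benjamini-Hochberg adjustment over all genes tested, prior count 0.125 for fold changes and 2 for log2 CPM. The 2 groups compared entered each fit, and all 16 libraries the interaction. Members under the filter had a two-sided exact permutation test, which takes all libraries as independent, also where both libraries of a mouse are compared. Alternatives used RLE factors, library totals, DESeq2 1.42.0, other filters, limma 3.58.1, 1 fit over all libraries, the mouse as a block and each library left out. Both libraries of a mouse are paired by the animal (series design text); after removing group means, r within mice 1 to 8 was 0.145, 0.0173, 0.21, 0.124, 0.0242, -0.0299, 0.0472 and 0.0832. The chi-square of counts per degree of freedom between replicate libraries was 1.98 to 8.64 over 24 pairs. On this scale of variances, counting noise alone gives about 1. Tests were checked on simulated data. Members and lists were chosen with earlier results of these data known. Genes named are all members, the filtered neighbours, 8 genes of the interferon pathway (1 is not reported here) and the 3 genes most like each member. Protein sequences were not used here.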

Additional observations from a re-analysis of the deposited data

Results flagged for a closer look

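Of 24 sets of 4 libraries checked (6 members in 4 groups), 1 held a library that stood apart by Dixon's criterion, and chance gives about 1 in 20. It was Slfn4 in host microglia without LPS, where mouse 7 had 1.6 CPM, from 2 reads, and mice 5, 6 and 8 had 0 reads. The value is below the 3 reads that a count of 0 allows.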

How the results depend on the processing

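Without LPS, the number of Schlafen genes called higher in engrafted cells was 1, and it became 2 with DESeq2, 3 without a filter for low counts and 2 with all 16 libraries in 1 fit, because Slfn1 (and, without a filter, Slfn9) then entered the fit. With 1 library left out it was 1 to 2: Slfn2 passed the 2-fold limit without the engrafted library of mouse 5 (1.09) or 6 (1.15) or the host library of mouse 7 (1.02) or 8 (1.07), and Slfn1 entered the fit without the host library of mouse 5 (3.75). With LPS in engrafted cells, 2 genes were called and 1 under a minimum of 10 reads per library, since Slfn1 was then not tested; with 1 library left out it was 2 to 3. The value of Slfn8 there turned to -0.011 with library totals, -0.027 with at least 10 reads in every library and -0.078 without the engrafted LPS library of mouse 2, in a range of -0.078 to 0.18 with 1 library left out; the cause was not tested. In the interaction, 0 genes became 1 under limma-trend (Slfn1). The fold change of Slfn4 in engrafted cells, 7.03, was 5.11 under limma-trend and 5.66 with a prior count of 2, chosen after the data were seen, and 8.39 without the control library of mouse 7; between the populations after LPS, 6.47 became 4.85, 5.51 and, without the host LPS library of mouse 1, 6.98. Library totals moved the median of all genes after LPS from -0.01 to -0.16, and limma-trend without LPS from 0.02 to -0.12. Over all genes, calls without LPS moved from 503 higher and 380 lower to 230 and 172 with at least 10 reads in every library, and to 895 higher without a filter; after LPS from 528 and 340 to 245 and 136, and to 857 higher without a filter. With LPS in engrafted cells 779 higher and 858 lower became 399 and 422 (1337 lower without a filter), in host microglia 631 and 853 became 381 and 490, and in the interaction 217 and 221 became 136 and 113 (331 higher under limma-trend; 137 and 143 lower without the host libraries of mice 3 and 8). With the mouse as a replicate block, 1 and 3 Schlafen genes were called between the populations without and after LPS and 0 in the interaction (Slfn1 2.12, adjusted p = 0.363), so the block changed no call. No paired analysis was possible because LPS and control mice are different animals in the LPS comparisons. Depth limits what can be said of Slfn1, Slfn4 and Slfn9 in host microglia.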
